A study of Rattus norvegicus with 9 samples.

Results

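The comparison set 6 livers of treated rats (model, 3, and drug, 3) against 3 control livers. It used 9 of the 9 arrays of the study, and members were chosen by group label alone, so that no measured value decided which arrays entered. The question was which transcripts differed from control in the same direction and by a like amount in both treated groups, that is, which differences were present with and without the drug. Gene expression was measured in liver total RNA on an Affymetrix rat expression array. All animals were Wistar rats labelled male, with a body weight of 180 to 220 g. The control, model and drug groups held 12 rats each, 36 in all, and 3 rats of each group were taken at random for the arrays. The series title names the drug as 7-P. What was done to the model rats, what 7-P is, its dose, the age of the animals and the time of collection are not given in the sources used here, and neither is any further treatment. The group labels are control, model and drug, and they do not state whether the drug rats also had the model treatment. A difference common to model and drug livers is therefore described here only as that.

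Liver tissue is made up mainly of hepatocytes, which make plasma proteins and lipoproteins and carry out most intermediary metabolism. Kupffer cells, the resident macrophages, line the sinusoids, take up particles and damaged blood cells, and release cytokines such as interleukin-1 beta. Neutrophils, monocytes and lymphocytes enter the tissue when it is injured or inflamed. In a whole-tissue sample a higher signal of a macrophage gene can come from more macrophages or from more RNA per macrophage, and these cannot be told apart. An array of this kind reads mostly the 3' end of a transcript, so RNA that is broken or copied incompletely changes the signal of probe sets according to their distance from that end.

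The arrays differed in ways the groups do not describe. The array carries control probe sets at the 3' and 5' ends of Gapdh, a glycolytic enzyme, and a high 3' to 5' ratio means a weaker 5' signal relative to the 3' signal. This ratio was 1.52, 3.14 and 3.07 in control 1 to 3, 4.09, 12.7 and 9.77 in model 1 to 3, and 1.31, 9.20 and 8.71 in drug 1 to 3. Thus 5 of the 6 treated arrays lay above every control array, and drug 1 lay below every control array. The mean ratio was 2.58 ± 0.915 in control (SD, n = 3) and 7.63 ± 4.15 in treated livers (SD, n = 6), with p = 0.0952 in a two-sided exact permutation test over the 84 ways to choose 3 of 9 arrays, which can give no p below 0.0119. Adjusted over 3 such array measures this permutation p was 0.268. The beta-actin ratio gave p = 0.310 and the trimmed mean signal, which ran from 33.2 to 80.4 between arrays, p = 0.179 in the same exact test. Eif2s3y, Xist and Cyp2c11, which mark sex, did not match the label in 7 arrays. The Y-linked transcript Eif2s3y reached log2 signals of 6.99 in control 2 and 7.17 in drug 3 and at most 2.53 in the other 7 arrays. Xist, the X-inactivation transcript of female cells, was low in that pair, at 2.65 and 3.05 in its brightest probe set, while the remaining arrays ran from 8.06 to 10.9. Cyp2c11, a P450 typical of male rats, was high in the same pair, at 11.3 and 12.1, and ran from 2.87 to 5.22 elsewhere. Uty, also Y-linked, went the other way, with unlogged normalized signals of 73.1 and 52.3 in that pair and 93.0 to 111 elsewhere. The labelled tissue was borne out by its markers, since all 14 hepatocyte markers with a probe set were above the filter, with a summed signal of 64838 to 66396 in control, 58894 to 66371 in model and 63494 to 66899 in drug livers.

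**Figure D1:**
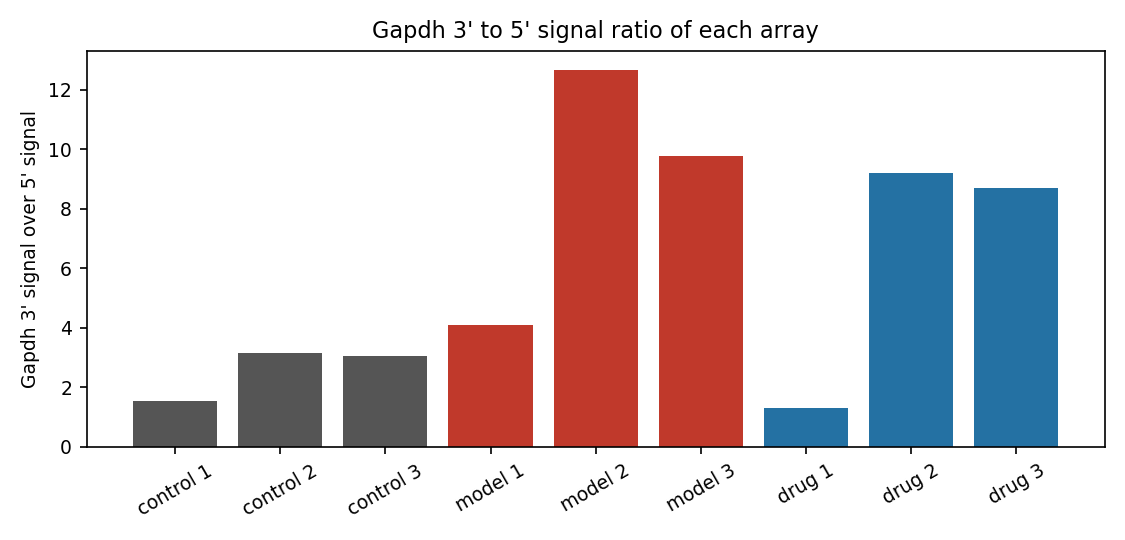
Ratio of the 3' to the 5' signal of the Gapdh control probe sets (y axis, no unit) in each of the 9 arrays (x axis, 1 bar an array, coloured by group). The ratio was highest in model 2 at 12.7 and lowest in drug 1 at 1.31, and 5 of 6 treated arrays lay above the highest control ratio of 3.14.

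With all 9 arrays weighted equally and no replicate block, no probe set passed the test. In limma, with Benjamini-Hochberg adjustment over 18625 probe sets, 0 (0%) had an adjusted p under 0.05 in treated against control livers, and the smallest adjusted p was 0.254. With array weights, which gave drug 1 the lowest weight (0.317), the same 9 arrays gave 39 higher and 5 lower calls, and with a replicate block 1 higher call, Thumpd3-as1. At an unadjusted p under 0.05 there were 1247 higher (6.7%) and 914 lower (4.91%) probe sets. Every treated array lay above every control array in 578 probe sets (3.1%) and below in 479 (2.57%). As separate contrasts of the same limma fit, model against control and drug against control also gave 0 probe sets past the adjusted threshold. Their smallest adjusted p were 0.219 and 0.676, with 2245 and 1345 probe sets at an unadjusted p under 0.05. These comparisons share the control arrays and a residual spread taken over all 3 groups.

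This outcome turned on drug 1. Leaving that array out gave 240 higher and 132 lower probe sets at an adjusted p under 0.05, while leaving out any other array gave 0 or 1. The single calls were Ncf4, a subunit of the phagocyte oxidase, higher by 3.76 without control 3, and an unnamed probe set without model 2. With control 1 and drug 1 both left out, 0 higher and 0 lower probe sets passed, and the smallest limma adjusted p was 0.0823. In the data without drug 1 every remaining treated array also had a Gapdh ratio above every control array. With drug 1 left out and the log2 Gapdh ratio added as a term, a setting chosen after seeing the data, 0 probe sets passed and the smallest adjusted p was 0.277. In those arrays the ratio runs with the group difference, so this setting cannot separate them. All 372 probe sets called without the term kept their direction, and 181 had an unadjusted limma p under 0.05. Over all 18625 probe sets 695 higher and 897 lower were at that level. Of the 372 probe sets called without drug 1, 371 were also kept with all 9 arrays, and all 371 had the same direction there. The fits share every array but drug 1, so this agreement shows little. Drug 1 itself lay on that side of the control mean in 227 of those 371. The part of RNA quality in these calls was not tested beyond this.

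**Figure D2:**
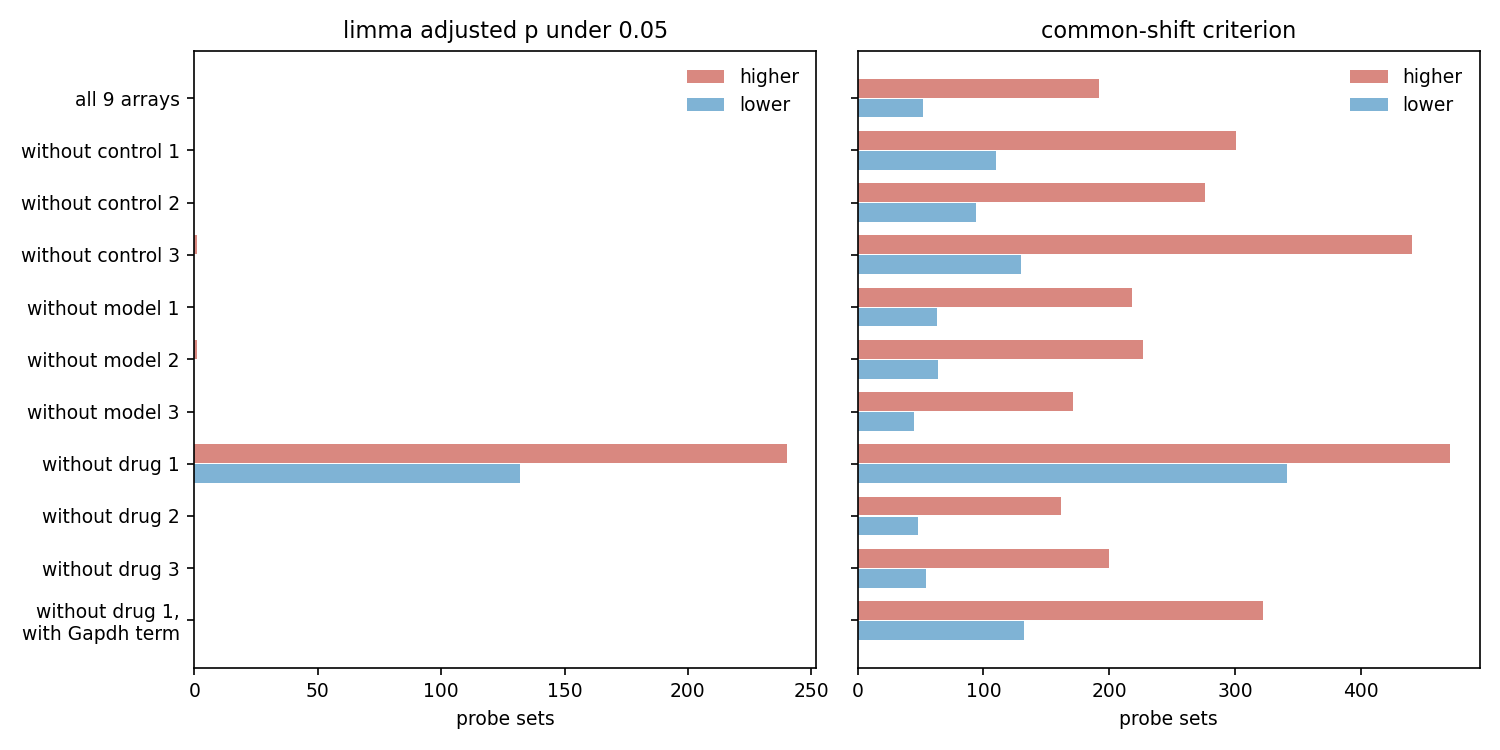
Number of probe sets (x axis) with a limma adjusted p under 0.05 (left) and meeting the common-shift criterion (right) for treated against control livers, higher and lower, with all 9 arrays, with each array left out in turn, and with drug 1 left out and a Gapdh term added (y axis). Leaving out drug 1 gave 240 higher and 132 lower calls, against 0 and 0 with all arrays.

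To describe differences present in both treated groups, a probe set was counted as a common shift where 3 things held. All 6 treated arrays lay on one side of all 3 control arrays, the mean of each treated group differed from control by at least 1 on the log2 scale (2-fold), and drug and model differed by under 0.5 times the pooled difference. The criterion is a description without a test. It was met by 192 higher probe sets (1.03% of those kept) and 52 lower ones (0.279%), which name 126 and 45 genes. The control mean lay under the filter in 58 of the 192 and the treated mean in 15 of the 52, so that these were kept only through the side where they are high. Counted with 1 probe set a gene, the brightest, it was met by 102 higher genes (0.978% of 10432) and 33 lower genes (0.316%), beside 744 higher (7.13%) and 598 lower (5.73%) genes at an unadjusted p under 0.05. The median difference of the higher set was 1.40 and that of the lower set -1.26, against -0.01 over all probe sets kept. The adjusted p of these probe sets ran from 0.254 to 0.431 for the higher and from 0.323 to 0.489 for the lower set. Each control array left out raised the counts too, to 301 and 110 without control 1, 276 and 94 without control 2 and 441 and 130 without control 3. With fewer arrays the condition of no overlap is easier to meet, whichever array is left out, so a rise is partly built in. Without drug 1 the criterion was met by 471 higher and 341 lower probe sets, and with a term for the log2 Gapdh ratio over all arrays by 120 and 30, of which 129 were among the 244 counted here. Without control 2 and drug 3, the arrays that differed from the rest in sex transcripts, it was met by 278 higher and 97 lower probe sets, 0 probe sets passed the adjusted threshold in limma (smallest adjusted p 0.811), and 602 higher and 281 lower had an unadjusted p under 0.05.

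Drug 1 was the treated array nearest to control in these sets. The higher set lay a median of 1.0 above the control mean in drug 1, against 1.35, 1.37 and 1.73 in model 1 to 3 and 1.75 and 1.54 in drug 2 and 3. The lower set lay at -0.64 in drug 1, against -1.13, -1.14 and -1.45 in model 1 to 3 and -1.56 and -1.62 in drug 2 and 3. Of 69 genes of the sets with several probe sets kept, 46 had all of them on one side, and 2, Ptprc and Zfp292, met the criterion in 2 probe sets.

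Surface proteins and signalling proteins of leukocytes were among the higher genes with the smallest p. Siglec5, a sialic-acid-binding receptor of myeloid cells, had log2 signals of 3.54, 4.44 and 4.54 in control 1 to 3, 6.84, 7.20 and 6.63 in model 1 to 3, and 5.40, 6.08 and 6.08 in drug 1 to 3. The groups did not overlap, and all 3 model arrays lay above all 3 drug arrays. The treated livers were higher by 2.20 (SE 0.294, limma adjusted p = 0.254), and drug minus model was -1.04 with a 95% interval from -1.79 to -0.28 (adjusted p = 0.998 for that contrast). Igsf6, a membrane protein of the immunoglobulin superfamily, read 3.45, 2.26 and 2.72 in control, 5.33, 5.34 and 5.11 in model and 4.62, 4.58 and 4.40 in drug livers. Its difference was 2.09 (SE 0.302, adjusted p = 0.254), and drug minus model was -0.73 (95% interval -1.51 to 0.05). Its control mean lay under the filter of 2.82 that was set on the mean of all arrays, so its fold rests on a dim control level.

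Ptprc, which encodes CD45, the tyrosine phosphatase carried by all leukocytes, read 4.52, 3.72 and 4.26 in control, 5.61, 5.95 and 5.32 in model and 5.42, 5.58 and 5.64 in drug livers. Each treated array lay above each control array, the difference was 1.42 (SE 0.254, adjusted p = 0.323), and a second probe set gave 2.18. Drug minus model was -0.08 (95% interval -0.73 to 0.57). Cd163, the macrophage scavenger receptor for haemoglobin bound to haptoglobin, read 4.87, 4.73 and 4.53 in control, 5.64, 6.27 and 5.98 in model and 5.91, 5.75 and 6.0 in drug livers. The treated arrays lay close together, the difference was 1.21 (SE 0.219, adjusted p = 0.323), or 2.32-fold, and drug minus model was -0.07 (95% interval -0.64 to 0.49).

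Further genes of myeloid cells met the criterion and were picked out after their values were seen. Cd5l, a protein secreted by tissue macrophages, was higher by 1.58, with 6.25 to 7.30 in control and 7.77 to 9.14 in treated livers. Fermt3, the kindlin that activates integrins in blood cells, was higher by 1.89. Ncf4 was higher by 2.73, from 1.51, 1.12 and 4.30 in control to between 4.72 and 5.51 in treated livers, so that 1 control array set much of its spread. Ptgs1, the constitutive cyclooxygenase, was higher by 1.52 and by 1.55 in a second probe set. Slamf9 and Mnda were higher by 1.43 and 2.19, but a second probe set of Mnda gave 0.39.

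**Figure D3:**
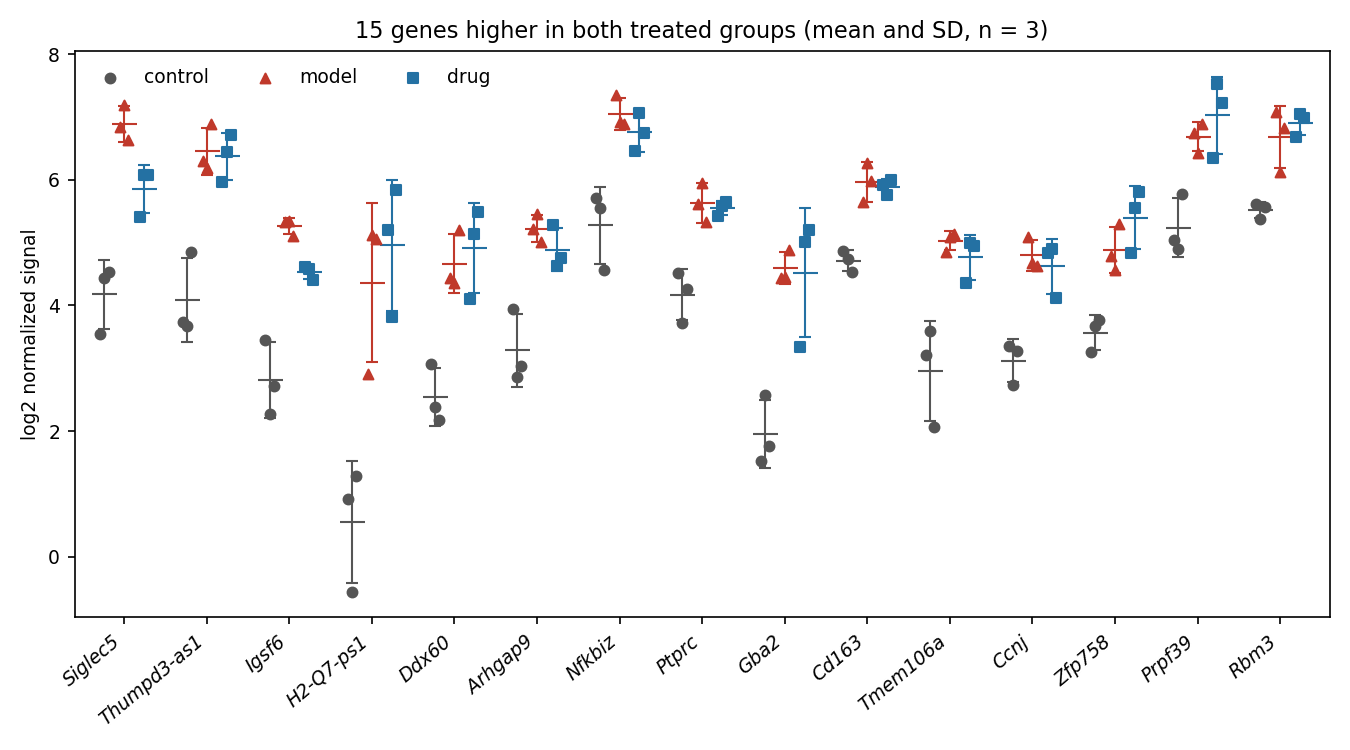
Log2 normalized signal (y axis) of the 15 named higher genes (x axis) in control, model and drug livers; points are arrays, horizontal marks are group means and bars are SDs (n = 3). All 6 treated points lie above the 3 control points for each gene, as the criterion requires, and for Siglec5 the drug points (5.40 to 6.08) lie between control and model points.

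Nfkbiz, a nuclear member of the I-kappa-B family that is needed for a subset of NF-kB targets, read 5.71, 5.54 and 4.57 in control, 7.34, 6.92 and 6.89 in model and 6.46, 7.07 and 6.75 in drug livers. It was higher by 1.63 (SE 0.290, adjusted p = 0.323), and drug minus model was -0.29 (95% interval -1.04 to 0.45). Il1b, the precursor of interleukin-1 beta, read 4.80, 3.81 and 4.46 in control, 5.81, 6.56 and 5.70 in model and 5.37, 5.46 and 5.61 in drug livers. Its difference was 1.39 (SE 0.290, adjusted p = 0.323), with all drug arrays below all model arrays and a drug minus model interval from -1.29 to 0.20. Ccl6, a macrophage chemokine, was at 7.32, 6.64 and 7.70 in control, 8.69, 9.37 and 8.49 in model and 9.15, 8.15 and 8.38 in drug livers, higher by 1.49 (SE 0.318, adjusted p = 0.327). Il1b and Ccl6 were 2 of 16 cytokine and chemokine genes measured, beside 0.978% of all genes that met the criterion as higher. That list was split into 8 higher and 8 lower with a median of -0.0032. At an unadjusted p under 0.05 there were 4 higher and 0 lower, beside 7.13% and 5.73% of all genes.

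Genes known from interferon responses were represented singly. Ddx60, a helicase induced by interferon, read 3.06, 2.39 and 2.17 in control, 4.44, 4.36 and 5.21 in model and 4.10, 5.13 and 5.49 in drug livers. It was higher by 2.25 (SE 0.391, adjusted p = 0.323) from a control mean under the filter. Slfn4, of the Schlafen family that is regulated in macrophages, was at 6.43, 5.95 and 7.07 in control, 8.90, 10.08 and 9.91 in model and 7.39, 10.25 and 10.03 in drug livers, higher by 2.94, with drug 1 just above the controls. Slfn9, Trim34 and Trim30d were higher by 2.29, 1.26 and 1.42 and were chosen after their values were seen; these families have near-identical members that probe sets may not separate. H2-Q7-ps1, named as a pseudogene of the MHC class I family, differed by 4.11 (SE 0.686, adjusted p = 0.323), and by 1.85 when 8 was added to each signal before taking logs. Its control signals of 0.92, -0.56 and 1.28 are near the bottom of the scale, where the table gives no detection call, and related class I genes may share its probes. The interferon and MHC class I list, counted by the brightest probe set a gene, did not move as a whole with these genes. Of its 25 members 15 were higher and 10 lower, beside 48.8% higher over all genes. Its member Stat2 met the criterion in 1 probe set (1.05) but not in its brightest (0.53). At an unadjusted p under 0.05 there was 1 higher member, beside 7.13% of all genes.

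Genes of RNA splicing and RNA binding were noticed in the values first and then gathered as a list. Prpf39, a factor of the U1 particle, read 5.04, 4.90 and 5.77 in control, 6.75, 6.43 and 6.89 in model and 6.34, 7.53 and 7.22 in drug livers, higher by 1.62 (SE 0.309, adjusted p = 0.323). Rbm3, a cold-inducible RNA-binding protein, read 5.62, 5.37 and 5.57 in control, 7.08, 6.13 and 6.83 in model and 6.69, 7.05 and 6.98 in drug livers, higher by 1.27 (SE 0.245, adjusted p = 0.323). Both genes had every treated array above every control array.

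Of 75 such genes measured, each by its brightest probe set, 49 were higher and 26 lower, and 12 met the criterion, all higher (0.978% over all genes). At an unadjusted p under 0.05 there were 22 higher and 3 lower, beside 7.13% and 5.73% of all genes. Their median difference was 0.37, beside -0.02 over all genes. The list was drawn up after the values were seen and its count supports nothing by itself. Members that met the criterion include Ddx5 (1.29) and the kinases Clk1 (1.52) and Clk4 (1.40), which phosphorylate splicing factors. Sf3b1 of the U2 particle was at 7.40, 7.28 and 7.44 in control, 8.80, 8.62 and 9.28 in model and 7.66, 9.20 and 9.03 in drug livers, a difference of 1.39. Srsf5 differed by 1.33 and Hnrnph1 by 1.24.

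Several of these values depended on the probe set and the array. Hnrnpa1 differed by 1.64 in its brightest probe set and by 0.11 and 0.01 in the others, Hnrnpdl by 1.11 and 0.21, and Sfswap by 1.16, 0.36 and -0.98. Son had 5 probe sets from 0.99 to -1.59, and the one at -1.59, a dim one, met the criterion as lower. Pnisr and Prpf38b met it as higher, at 1.63 and 1.77, in a probe set other than their brightest. The summed signal of the list was 11142, 11772 and 12911 in control 1 to 3, 16043, 18287 and 23422 in model 1 to 3, and 11751, 24422 and 21314 in drug 1 to 3. Drug 1 thus lay within the control range and the other 5 treated arrays above it. Those 5 arrays were also the ones with a Gapdh ratio above every control, while the ratio of drug 1 was below every control. With a term for the log2 Gapdh ratio the median of the list was 0.09, without control 1 it was 0.24, and without normalization it was -0.06 while all probe sets stood at -0.39. The part of RNA quality in this group was not tested beyond these values.

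Other higher genes belong to no single group. Thumpd3-as1, named as an antisense transcript of Thumpd3, read 3.73, 3.68 and 4.85 in control, 6.29, 6.20 and 6.89 in model and 5.96, 6.45 and 6.71 in drug livers. It was higher by 2.33 (SE 0.325, adjusted p = 0.254, and 0.0453 with a replicate block), or 5.02-fold, with drug minus model at -0.09 (95% interval -0.92 to 0.75). Gba2, a glucosylceramidase outside the lysosome, was higher by 2.60 (SE 0.467, adjusted p = 0.323) from a control mean under the filter, and its drug 1 value of 3.34 stood apart from 4.44 to 5.21 in the other treated arrays. Ccnj, a cyclin, Zfp758, a zinc-finger gene, and Tmem106a, a membrane protein, were higher by 1.59, 1.57 and 1.94. The offset before the log lowered the values of dim genes, to 1.42 for Gba2, 1.37 for Ddx60, 1.32 for Igsf6, 1.23 for Tmem106a and 1.03 for Ccnj.

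Among the lower genes Apoa4, a lipoprotein component made by liver and intestine, read 10.34, 9.67 and 10.66 in control, 9.11, 9.31 and 9.11 in model and 8.87, 8.91 and 9.02 in drug livers. Every treated array lay below every control array, including drug 1. The difference was -1.17 (SE 0.221, limma adjusted p = 0.323), or 2.25-fold, and drug minus model was -0.24 (95% interval -0.81 to 0.33). Acot4, a peroxisomal thioesterase that splits dicarboxylic acyl-CoA, read 6.89, 6.07 and 5.97 in control, 5.68, 5.25 and 4.83 in model and 5.24, 4.74 and 4.60 in drug livers, a difference of -1.25 (SE 0.298, adjusted p = 0.331). Stard5, a cytosolic sterol carrier, differed by -1.17 and was lower in all 3 of its probe sets.

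Mmp19, a matrix metalloproteinase, read 6.06, 6.0 and 5.57 in control, 4.84, 4.34 and 4.26 in model and 4.85, 4.48 and 4.72 in drug livers. Its difference was -1.29 (SE 0.240, adjusted p = 0.323), the smallest p among the lower common-shift genes, and drug minus model was 0.20 (95% interval -0.42 to 0.82). Cldn1, a tight junction protein of the bile canaliculus, differed by -1.17 and was lower in all 3 probe sets. Mif, a cytokine with tautomerase activity, read 9.92, 9.66 and 11.37 in control, 8.59, 8.81 and 9.28 in model and 9.64, 7.95 and 8.83 in drug livers. Its difference was -1.47 (SE 0.436, adjusted p = 0.362), and drug 1 lay only just under the lowest control array. Without control 3, the highest array, the difference was -0.93.

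Crem, a transcription factor of the cAMP response, read 5.39, 6.0 and 5.06 in control, 4.20, 4.43 and 3.54 in model and 4.73, 3.76 and 4.15 in drug livers. It differed by -1.35 (SE 0.332, adjusted p = 0.331), and all 6 of its probe sets kept were lower, from -0.15 to -1.35. Socs2, a feedback inhibitor of growth hormone signalling, read 5.50, 5.43 and 6.15 in control, 4.42, 5.20 and 4.27 in model and 5.10, 4.93 and 3.61 in drug livers, a difference of -1.11 (SE 0.380, adjusted p = 0.389). Epn1, an adaptor of clathrin-coated pits, differed by -1.44 (SE 0.308, adjusted p = 0.327), and the cyclin-dependent kinase 2 partner Cdk2ap1 by -1.12 (SE 0.264, adjusted p = 0.331). Aif1l differed by -1.66, with a treated mean under the filter. Several of these values shrank by over 1.5 times, with the same sign, once drug 1 was left out and a Gapdh term added: Mmp19 to -0.76, Acot4 to -0.42, Cdk2ap1 to -0.41 and Septin9 to -0.56. In the same setting Mif, Cldn1, Gatc and Socs2 grew to -2.25, -1.91, -1.73 and -1.80. With the Gapdh term over all arrays Ormdl3 was at -0.69 and Stard5 at -0.74.

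Some lower genes did not have the same value in all their probe sets. Ormdl3, a regulator of sphingolipid synthesis, differed by -1.22 in one probe set and by 0.32 in another, and Cdip1 by -1.30 and -1.19 in a pair of probe sets and by 0.04 in its brightest. Clu, a secreted chaperone, differed by -2.19 in a dim probe set that met the criterion and by -1.38 in its brightest, which did not. Septin9 was lower in both of its probe sets.

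**Figure D4:**
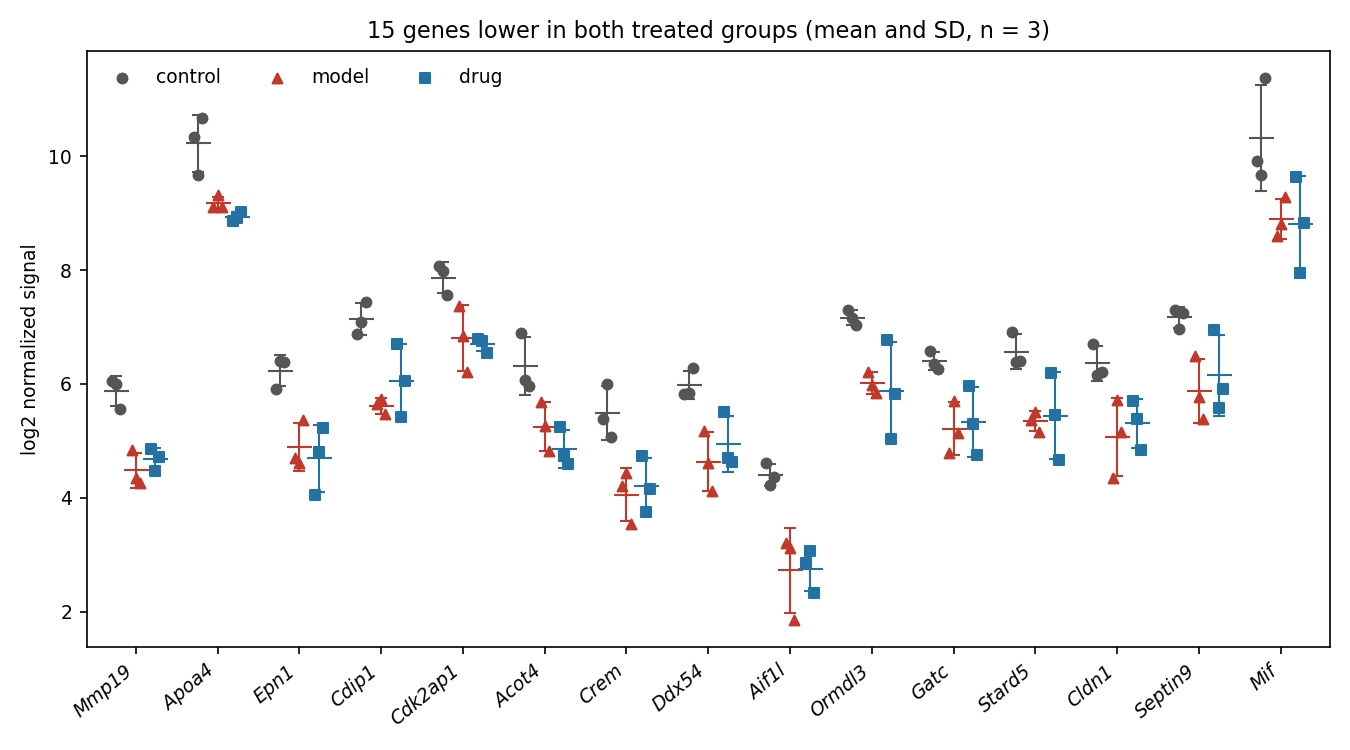
Log2 normalized signal (y axis) of the 15 named lower genes (x axis) in control, model and drug livers; points are arrays, horizontal marks are group means and bars are SDs (n = 3). All 6 treated points lie below the 3 control points for each gene, as the criterion requires; Apoa4 stood at 9.67 to 10.66 in control and 8.87 to 9.31 in treated livers.

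Over whole gene lists the markers of macrophages stood higher and those of hepatocytes near all genes. Of 15 Kupffer cell and macrophage genes measured, 13 were higher and 2 lower, with 3 and 0 at an unadjusted p under 0.05 (background 7.13% and 5.73% of genes). Only Cd163 met the criterion. Their median difference was 0.58, with 0.69 in model and 0.40 in drug livers, and it was 0.31 without control 2. The summed signal was 1729 to 2688 in control, 2413 to 4244 in model and 2289 to 3358 in drug livers, so the groups overlapped. Unlike the splicing list, its median was not smaller with a term for the log2 Gapdh ratio, at 0.65, though it was 0.07 once drug 1 was also left out.

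Of 5 neutrophil genes measured, 4 were higher and 1 lower, and 4 others were below the filter. Their median was 1.30, with 1.66 in model and 0.62 in drug livers, and 0.83 without control 3. The middle value is that of Csf3r, a receptor of granulocytes, whose control mean lay under the filter, so that it was kept through its treated arrays. S100a9, a calcium-binding protein of neutrophils, read 6.14, 7.89 and 6.40 in control, 10.54, 8.42 and 9.96 in model and 6.57, 10.14 and 6.53 in drug livers. Drug 1 and drug 3 lay in the control range, so that this gene did not differ alike in both groups. Of 14 hepatocyte markers 5 were higher and 9 lower, with a median of -0.04 and 0 at an unadjusted p under 0.05.

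Genes of mitochondrial respiration, antioxidant defence and fatty acid oxidation were mostly lower. Of 46 oxidative phosphorylation genes 41 were lower and 5 higher, 14 and 0 of them at an unadjusted p under 0.05, beside 5.73% of genes lower at that level. The median was -0.42, with -0.57 in model and -0.39 in drug livers, and no member met the criterion or passed the adjusted threshold. Atp5f1d, a subunit of the ATP synthase, read 9.12, 9.22 and 9.01 in control, 8.34, 8.60 and 8.13 in model and 8.66, 8.10 and 8.66 in drug livers, a difference of -0.70 (SE 0.201, adjusted p = 0.362). Ndufb10, a subunit of complex I, differed by -0.80 (SE 0.240, adjusted p = 0.365). The summed signal of the list was 33605 to 36305 in control, 21838 to 29710 in model, and 34261, 23764 and 27055 in drug 1 to 3, so that drug 1 again lay among the controls.

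Of 21 antioxidant genes 19 were lower, 6 at an unadjusted p under 0.05 (5.73% over all genes), with a median of -0.50. Prdx6, a peroxiredoxin, read 8.93, 8.81 and 8.83 in control, 8.49, 7.59 and 7.47 in model and 8.72, 7.57 and 7.89 in drug livers, a difference of -0.90 (SE 0.301, adjusted p = 0.381). Of 27 fatty acid oxidation genes 20 were lower, 5 at that level, with a median of -0.35. Acads, the short-chain acyl-CoA dehydrogenase, differed by -0.84 (SE 0.259, adjusted p = 0.370). Of 20 heat shock genes 17 were lower, 3 at that level and 4 without overlap, beside 334 of all 10432 genes lower without overlap. The median of the list was -0.46, and -0.30 without control 1. Fkbp4, a co-chaperone of steroid receptors, read 9.35, 8.77 and 8.92 in control, 7.54, 8.49 and 8.10 in model and 8.21, 7.49 and 7.40 in drug livers, a difference of -1.14 (SE 0.275, adjusted p = 0.331). With a term for the log2 Gapdh ratio the medians of these lists were -0.22 for oxidative phosphorylation, -0.20 for antioxidant, -0.24 for fatty acid oxidation and -0.27 for heat shock genes. In drug 1 the summed signal was 21835 for antioxidant genes (21780 to 22249 in control) and 7058 for heat shock genes (6603 to 7859 in control), again within the control range. For fatty acid oxidation genes the sum was 18936 to 19965 in control, and drug 1 (20842) and model 2 (19988) lay above every control, while the other 4 treated arrays lay between 14305 and 17115. With the Gapdh term Prdx6 differed by -0.39 and Acads by -0.53. The part of RNA quality in these lists was not tested beyond these values.

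**Figure D5:**
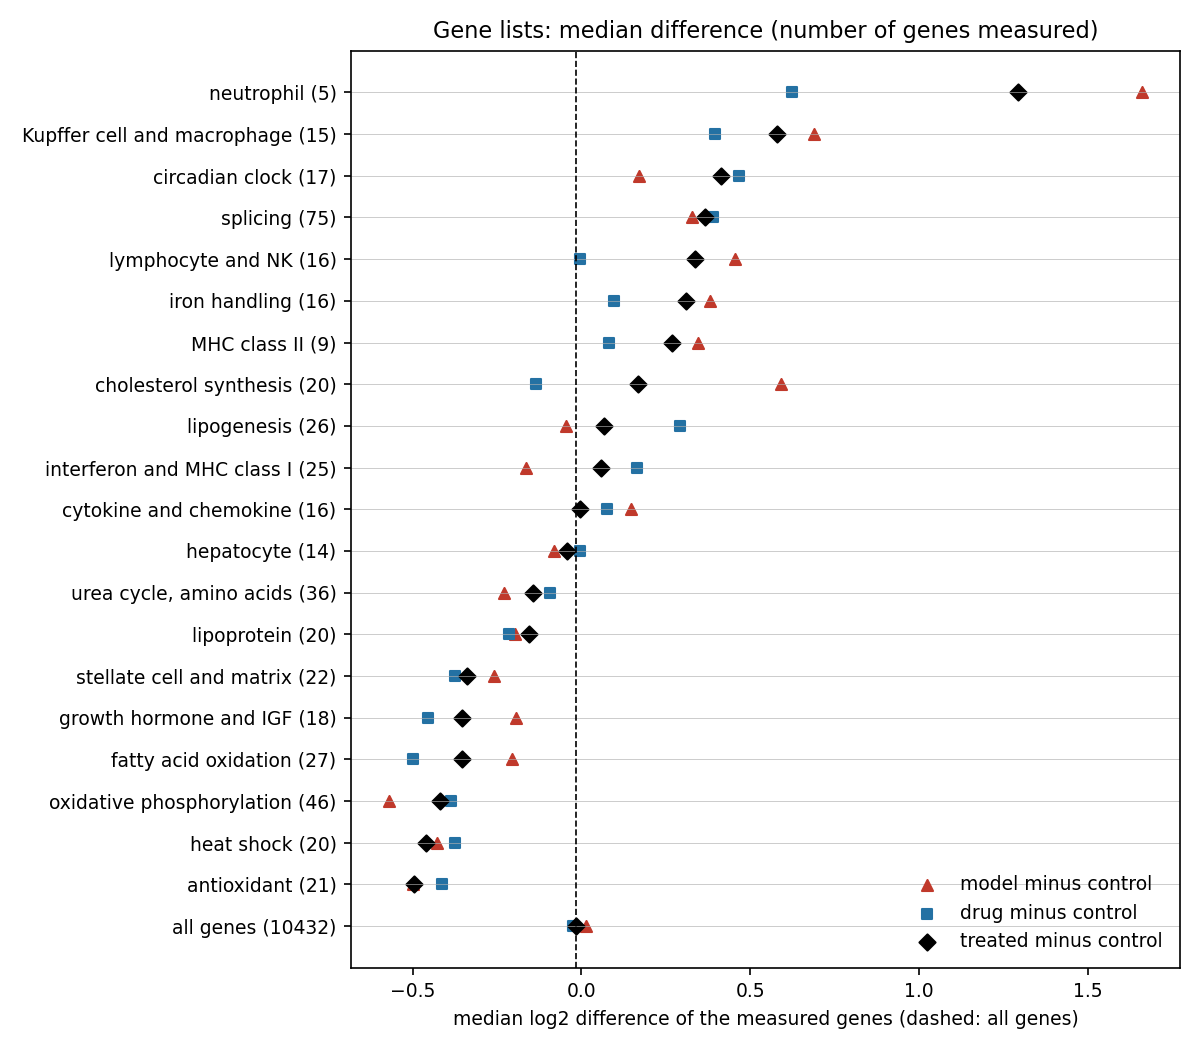
Median log2 difference from control (x axis) of the measured genes of each list (y axis, number measured in brackets) in treated, model and drug livers; the dashed line is the median of all genes at -0.02. Macrophage and splicing lists lie to the right (0.58 and 0.37) and oxidative phosphorylation, heat shock and antioxidant lists to the left (-0.42, -0.46 and -0.50).

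Among clock genes, none of which passed the adjusted threshold, Nr1d1, the nuclear receptor that represses Bmal1, read 2.12, 3.70 and 4.37 in control, 5.14, 3.85 and 5.30 in model and 6.47, 6.39 and 7.38 in drug livers. It was higher by 2.36 (SE 0.514, adjusted p = 0.330), but drug minus model was 1.98 (95% interval 0.66 to 3.30), so the difference was not alike. Nr1d2, its paralog, was higher by 2.41, and Per2, a repressor of the clock, by 1.91 without overlap of treated and control arrays. Bmal1, the activator, read 6.38, 5.46 and 5.45 in control, 4.61, 5.30 and 4.89 in model and 4.62, 4.49 and 2.51 in drug livers, a difference of -1.36 (SE 0.467, adjusted p = 0.389). Nfil3 differed by -1.05. Of 17 clock genes 10 were higher and 7 lower, and none met the criterion. At an unadjusted p under 0.05 there were 5 higher and 3 lower, beside 7.13% and 5.73% of all genes. The time of day at which livers were taken is not given in the sources used here.

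Metabolic enzymes and transporters gave single genes. Abcc3, an export pump for bile acids and conjugates, read 1.72, 1.92 and 4.71 in control, 4.53, 4.96 and 6.17 in model and 5.29, 5.94 and 4.31 in drug livers, higher by 2.41 (SE 0.683, adjusted p = 0.362) with overlap through control 3 and a control mean under the filter. It was 1.46 with an offset added before the log and 0.83 with drug 1 left out and a Gapdh term. Cyp7a1, the rate-limiting enzyme of bile acid synthesis, was higher by 1.14 (SE 0.433, adjusted p = 0.397), also with overlap. Gstt1, a glutathione transferase, read 8.36, 8.28 and 8.20 in control, 7.09, 6.93 and 6.87 in model and 8.16, 7.04 and 7.12 in drug livers, with drug 1 just under control, and differed by -1.07 (SE 0.258, adjusted p = 0.331), or by -0.66 with the Gapdh term. Fmo1, a flavin monooxygenase, is named by the rule for its list but went against a common difference, at -3.09 in model and 0.38 in drug livers.

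Promoters of the common-shift genes were searched for letters of 6 known motifs, in the 250 bases before the start of 1 RefSeq transcript a gene (build GRCr8, both strands). The motifs were chosen after the gene names and values were seen, and other spellings were tried. Of the genes with a promoter, 116 were higher and 36 lower, against 27457 genes in all. Shown are the stretches of 4 genes whose values are given above or that share a motif, with the motif in capitals: the interferon-stimulated response element GAAANNGAAA in Ddx60, the NF-kB letters GGGANTTTCC in Nfkbiz, and the cAMP response element TGACGTCA in Mif and Ormdl3.
Ddx60, chr16:33208878-33208937, minus strand: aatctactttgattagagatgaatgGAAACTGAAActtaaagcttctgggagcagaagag
Nfkbiz, chr11:58251683-58251720, plus strand: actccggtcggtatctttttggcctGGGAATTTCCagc
Mif, chr20:12790271-12790328, plus strand: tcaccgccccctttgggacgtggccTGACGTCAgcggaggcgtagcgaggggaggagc
Ormdl3, chr10:84092301-84092353, minus strand: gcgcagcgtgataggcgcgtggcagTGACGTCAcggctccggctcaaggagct

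The motif lay 64 to 73 bases before the start in Ddx60, 4 to 13 in Nfkbiz, 54 to 61 in Mif and 21 to 28 in Ormdl3. The interferon-stimulated letters were in 2 of 116 higher and 1 of 36 lower promoters, against 3.29% of all promoters. The cAMP letters were in 0 of 116 and 3 of 36 (Mif, Ormdl3 and Nos1), against 1.7%. The NF-kB letters were in 2 of 116, Nfkbiz and Upp1, and 0 of 36, against 0.317%. The PU.1 letters GAGGAAGT were in 5 and 1, against 2.04%, the AP-1 letters TGACTCA or TGAGTCA in 4 and 2, against 3.98%, and the STAT letters TTCNNNGAA in 5 and 1, against 7.52%. These matches are descriptions of letters; no binding was measured.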

How the data were processed

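The values were the deposited signal intensities of 9 Affymetrix arrays, which GCOS 1.2 produced per the submitters' processing notes; scaling settings are not given in the sources used here. Members and gene lists were chosen with earlier results of these data known. Control probe sets (57) were left out, and 31042 others were log2 transformed and quantile normalized, because trimmed mean signals differed between arrays; this removes a true difference in total RNA. Of these, 20826 carried 1 gene symbol in the platform annotation, 436 several and 9780 none; 20758 matched a rat gene by Entrez identifier. A probe set was kept if its mean reached the 40th percentile of all means (log2 2.82), which left 18625.

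Differences were fitted with limma 3.58.1 (R 4.3.3), lmFit and eBayes with an intensity trend, with a term for each group. The contrast was the mean of model and drug minus control, two-sided, with Benjamini-Hochberg adjustment over all probe sets kept. The fit was tested on simulated data. Lists used the brightest probe set a gene. Named were the 15 higher and 15 lower common-shift genes with the smallest p, since none passed the threshold, and the 2 genes of each list with the smallest p. Array replicate numbers were not treated as pairs in the main fit. Deviations of same-numbered arrays correlated between -0.01 and 0.48, and those of differently numbered arrays between -0.37 and 0.32. A batch shared by same-numbered arrays was not tested beyond the replicate block. No pair of arrays correlated above 0.928, so none was a duplicate. With nothing in the labels beyond 3 rats a group, p-values measure the spread between these samples. Their number limits the precision.

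Alternatives covered normalization, an offset of 8, filters, a replicate block, a Gapdh term, array weights, the probe set rule, the fold minimum and each array left out.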

Additional observations from a re-analysis of the deposited data

Results flagged for a closer look

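Among 111 values tested over the 6 treated arrays, 14 (12.6%) had 1 array apart from the other 5; chance alone sets apart about 1 in 20. Drug 1 stood apart in Tmem106a (log2 signal 4.35), Csf3r (2.41), Gstt1 (8.16), Rpsa (9.53), Bckdha (8.08), Ctnnb1 (9.55) and the trimmed mean signal (66.5 signal units). Drug 3 stood apart in Xist (3.05, in its brightest probe set), Cyp2c11 (12.1) and Cyp2c12 (8.19), which mark sex. It also stood apart in Uty (5.71), a Y-linked gene that was low there, against the direction of Eif2s3y. Model 2 stood apart in Il1b (6.56) and Eng (6.78), and model 3 in Ahsg (11.5).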

How the results depend on the processing

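The direction of the 244 common-shift probe sets was kept by all those tested in each alternative except 1, where 233 of 236 kept it (drug 1 left out with a Gapdh term). The criterion itself fixes or nearly fixes this direction where arrays are left out, the filter changes or a replicate block is added. Agreement in those settings therefore shows nothing further. Counts moved more. Leaving out each array gave 0 to 240 higher and 0 to 132 lower calls, 162 to 471 higher and 45 to 341 lower common shifts, and 632 to 1516 higher and 543 to 1432 lower probe sets without overlap, with the highest values without drug 1. Common shifts, higher and lower, were 42 and 100 without normalization, 82 and 11 with the offset, 319 and 155 without a filter, 115 and 27 with the 60th percentile filter, 120 and 30 with the Gapdh term, 102 and 33 with 1 probe set per gene, 374 and 220 at 1.5-fold, 322 and 132 with drug 1 left out and a Gapdh term, and 34 lower with trimmed mean scaling. Without the pair control 1 and drug 1 they were 515 and 294, and 97 lower without the pair control 2 and drug 3. Probe sets without overlap were 69 and 295 without normalization, 2009 and 2003 without the first pair, 1104 and 989 without the second, 364 higher with 1 probe set per gene, and 1516 and 1432 with drug 1 left out and a Gapdh term. Array weights gave 39 higher and 5 lower calls, 36 of the 44 among the common shifts. The replicate block gave 1 higher call, Thumpd3-as1 (limma adjusted p = 0.0453), and 1695 lower probe sets at an unadjusted p under 0.05. Whether the replicate numbers stand for a shared batch or a pairing was not tested beyond this. For other changes the cause was not tested. Without normalization the direction turned for Krt18 (-0.23), Cp (-0.086), C5 (-0.014), Klkb1 (-0.25), Sc5d (-0.0096), Rpsa (-0.15), Dnajc3 (-0.19), Ier3 (-0.020), Slc39a14 (-0.051), Glul (-0.019) and Ctnnb1 (-0.18). Uty, at -0.05, turned to 0.041 with trimmed mean scaling, 0.20 with the Gapdh term and 0.10 with drug 1 left out and a Gapdh term, and ran from -0.22 to 0.10 with each array left out. Of 43 list medians, 16 kept their sign in all 22 alternatives.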

Other observations

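No gene named here passed the adjusted threshold in the main fit. Over the alternatives the lowest limma adjusted p was 0.0279 for Siglec5 and Gba2 and 0.0453 for Cd163. For Mif and Cdk2ap1 it stayed above the threshold, at 0.0601 and 0.0619. Ass1, a urea cycle enzyme, read 12.18, 12.08 and 12.01 in control, 10.92, 11.35 and 10.92 in model and 11.64, 10.75 and 11.35 in drug livers, a difference of -0.93 (SE 0.211, limma adjusted p = 0.331) without overlap. Of 36 urea cycle and amino acid genes, 25 were lower and 11 higher, beside 5338 lower and 5094 higher of all 10432 genes. Igfals, the binding partner of circulating insulin-like growth factor, differed by -0.94 (SE 0.255, adjusted p = 0.362) with overlap, and of 18 growth hormone genes 14 were lower, with a median of -0.35 that was -0.64 without control 2 and -0.21 without control 3. Phlda3 and Cdkn1a, which p53 induces, differed by -1.20 and -1.21 with overlap of treated and control arrays, and 17 of 23 genes of that list were lower. Glul, glutamine synthetase of pericentral hepatocytes, differed by 0.73 (SE 0.234, adjusted p = 0.378), and Slc39a14, a zinc and iron importer, by 0.64 (SE 0.187, adjusted p = 0.362); without normalization they were at -0.019 and -0.051. Il1r1, the interleukin-1 receptor, was higher by 1.26 without overlap, with 1.67 in model and 0.86 in drug livers. Col1a2, a collagen chain of stellate cells, differed by -0.64 (SE 0.212, adjusted p = 0.381), and 14 of 22 stellate and matrix genes were lower. At an unadjusted limma p under 0.05, 5 urea cycle and amino acid genes were lower and 2 higher. These counts were 3 and 0 for growth hormone genes, 3 and 1 for the p53 list and 1 and 0 for stellate and matrix genes. Over all genes 5.73% were lower and 7.13% higher at that level.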
